A study of Caenorhabditis elegans with 82 samples.

Results

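The change of the whole-worm transcriptome between the first and the seventh day of adult life was measured in Caenorhabditis elegans kept on Ochrobactrum MYb71, a bacterium from the natural gut microbiome of the nematode. The members were the 8 RNA-seq libraries whose labels name the treatment MYb71 and either of these ages, out of 82 libraries in the series: 4 libraries of adults aged 7 days (Ad7) and 4 libraries of adults at 72 h (Ad1, the first adult day). All worms were of the wild type strain N2, were kept at 20 °C on a medium labelled mNGM, which the study's methods describe as free of peptone, and had lived on their bacterium for generations before sampling. Plates were changed during adult life, and adults were picked by hand to separate them from their offspring. Eggs still held inside the adults would have stayed in the samples. The replicates came from independent runs of the experiment. The wider study compared worms on 2 Ochrobactrum isolates, on a mixture of both and on Escherichia coli OP50, the standard laboratory food, at 6 ages. Other groups are used below for context, namely Ad3 worms on MYb71 (3 days of adult life, 4 libraries), Ad7 and Ad1 worms on OP50 (3 libraries each) and Ad7 and Ad1 worms on the isolate labelled MYb65 (4 libraries each), although the paper of the study names its second isolate MYb237, and whether both names mean the same isolate could not be settled. These shared the strain, the medium and the temperature.

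An adult hermaphrodite makes all its sperm before it starts to make oocytes, and it runs out of its own sperm in the course of adult life, after which it lays unfertilised oocytes. The intestine makes the yolk proteins, which are secreted into the body cavity and taken up by growing oocytes, and it is also the site of digestion, fat storage and defence against ingested bacteria. The GATA factor ELT-2 drives the expression of most intestinal genes. In whole worms, fewer cells of a type, less RNA per cell and a larger share of RNA from other tissues cannot be told apart. This applies to every tissue named below.

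The libraries held 13539195 to 24050043 counts in Ad7 and 15134039 to 21903567 counts in Ad1. Ribosomal RNA genes took 10.8% of the counts in Ad1 replicate 2 and 0.0954% to 2.75% in the other 7 libraries. Over 13893 genes, the correlation of log2 levels was 0.989 to 0.992 among Ad7 libraries and 0.969 to 0.981 among Ad1 libraries, against 0.910 to 0.945 between the groups. The median standard deviation of a gene among replicates was 0.146 on the log2 scale in Ad7, against 0.278 in Ad1. The Ad1 worms thus varied more between runs than the Ad7 worms, and of the Ad1 libraries replicate 4 lay closest to Ad7. Levels below are in CPM, the read counts of a gene relative to the library total after TMM scaling over all adult libraries, and are given for replicates 1 to 4 in that order.

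Of 13893 genes tested, 3829 (27.6%) were higher and 4722 (34.0%) were lower in Ad7 than in Ad1 at an adjusted p under 0.05 in edgeR's quasi-likelihood test, which together were 61.5% of the genes. With a change of at least 1 on the log2 scale, 504 genes were higher and 3210 were lower. Large changes therefore ran mostly downward. The median change over all genes was −0.08, and 54.7% of the genes had every Ad7 library above or below every Ad1 library (28.0% above and 26.7% below). Upper quartile scaling moved the split to 2807 higher and 5498 lower, with a median of −0.23.

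Among called genes whose groups did not overlap and whose log2 CPM averaged 2 or more, the largest rise belonged to the uncharacterised gene H39E23.3 (WBcel235, chromosome V, 14107811 to 14110051, plus strand). H39E23.3 had 409, 182, 258 and 266 CPM in Ad7, against 0.787, 1.19, 2.44 and 0.0685 CPM in Ad1. Every Ad7 library lay far above every Ad1 library, with a log2 fold change of 7.81 ± 0.54 (SE, adjusted p = 1.98e-05). Its upstream neighbour on the same strand, D1086.9, which ends 1480 bases before it, rose by 6.40 ± 0.72 (adjusted p = 0.000202). D1086.9 had 181, 66.4, 99.9 and 123 CPM in Ad7, against 1.12, 0.0594, 3.44 and 0.137 CPM in Ad1. Both neighbours were thus close to silent in Ad1 and had their highest level in the same library, Ad7 replicate 1.

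T22B7.7, a further gene without a name, had 593, 558, 520 and 548 CPM in Ad7, against 2.4, 5.70, 15.7 and 3.83 CPM in Ad1, a log2 change of 6.27 ± 0.56 (adjusted p = 6.72e-05). The aspartyl protease gene asp-17 had 37.1, 33.8, 31.8 and 31 CPM in Ad7, against 0.373, 0.832, 0.331 and 0.342 CPM in Ad1, which is a log2 change of 6.14 ± 0.23 (adjusted p = 1.1e-07). Both genes were uniform among Ad7 worms, and the Ad1 libraries lay wholly beneath them. The gene far-3, which encodes a secreted fatty acid and retinol binding protein, had 831, 637, 615 and 620 CPM in Ad7, against 15.9, 10.6, 17.9 and 5.89 CPM in Ad1 (log2 5.69 ± 0.34, adjusted p = 3.45e-06). The fatty acid desaturase gene fat-5, whose product acts on palmitate, reached 247, 288, 223 and 248 CPM in Ad7, against 5.84, 4.04, 8.57 and 1.64 CPM in Ad1 (log2 5.55 ± 0.39, adjusted p = 1.54e-05). The lipid genes far-3 and fat-5 were therefore high in Ad7 and low in Ad1 in all libraries. The other leading rises were F15B9.6, a gene without a name (log2 5.65), dhs-26, a short-chain dehydrogenase gene (5.6), ugt-66, a glucuronosyltransferase gene (5.11), and abf-2, which encodes an antimicrobial peptide (5.09).

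**Figure D1:**
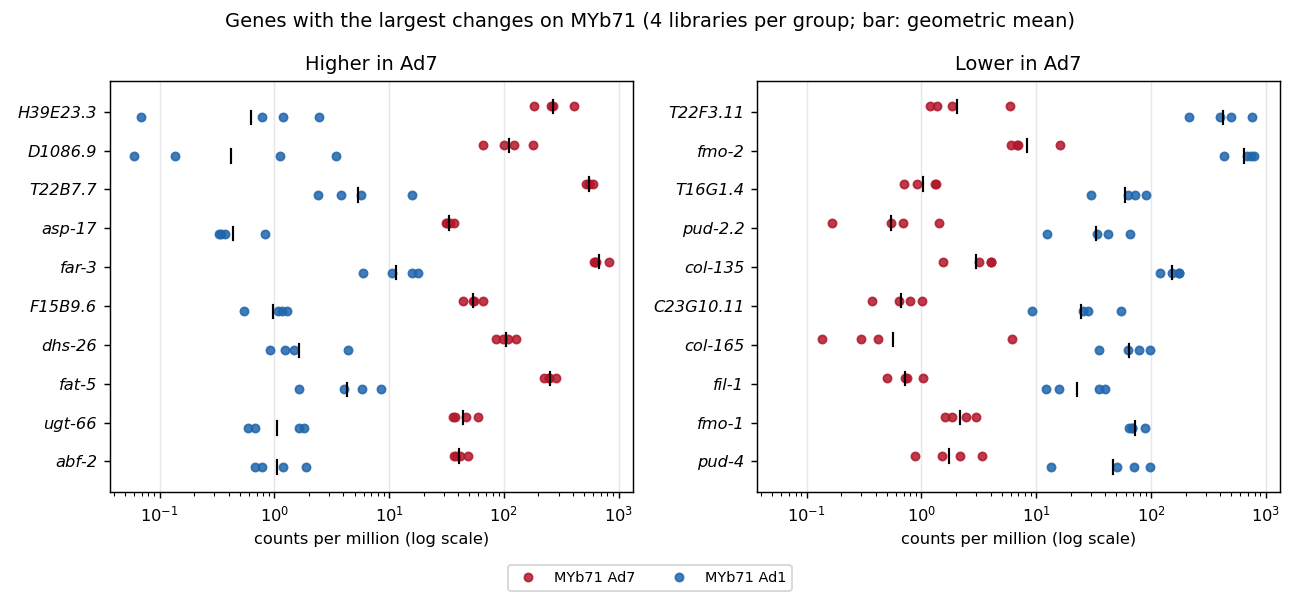
CPM on a log axis for the 10 genes with the largest rise and the 10 with the largest fall. They were taken among called genes with separate groups and a mean log2 CPM of at least 2. Each library is 1 point, with Ad7 in red, Ad1 in blue and a bar at the geometric mean. In every row the 4 Ad7 points lie apart from the 4 Ad1 points, as the choice of these genes required, and Ad1 replicates of H39E23.3 and D1086.9 spread more widely than the Ad7 replicates.

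By the same choice the largest fall belonged to T22F3.11, which had 1.83, 1.37, 5.92 and 1.19 CPM in Ad7, against 400, 499, 758 and 214 CPM in Ad1 (log2 −7.48 ± 0.64, adjusted p = 5.57e-05). The flavin-containing monooxygenase gene fmo-2, which is known for its links to dietary restriction and lifespan, had 16.1, 6.94, 6.84 and 6.01 CPM in Ad7, against 690, 793, 742 and 430 CPM in Ad1 (log2 −6.22 ± 0.38, adjusted p = 5.52e-06). Both fell to a small part of their Ad1 level in every Ad7 library, with Ad7 replicate 3 highest for T22F3.11 and Ad7 replicate 1 highest for fmo-2. Its paralogue fmo-1, 18119 bases away on chromosome IV, had 3.00, 1.60, 1.85 and 2.45 CPM in Ad7, against 64.1, 68.2, 88.4 and 68.9 CPM in Ad1 (log2 −5.07 ± 0.19, adjusted p = 1.1e-07). The remaining leading falls were T16G1.4 (−5.99), pud-2.2 (−5.93), the cuticle collagen genes col-135 (−5.63) and col-165 (−5.23), C23G10.11 (−5.36), the fasting-induced lipase gene fil-1 (−5.14) and pud-4 (−4.98). The pud genes are named for proteins that are abundant in daf-2 insulin receptor mutants, and pud-2.2 has near-identical copies whose reads may not have been told apart.

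The gene lists split by tissue, with members of the female germ line higher in Ad7 and members of muscle, neurons, basement membrane, sperm and intestine mostly lower. Counts of list members are set against 27.6% higher and 34.0% lower among all genes tested, and medians against −0.08.

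**Figure D2:**
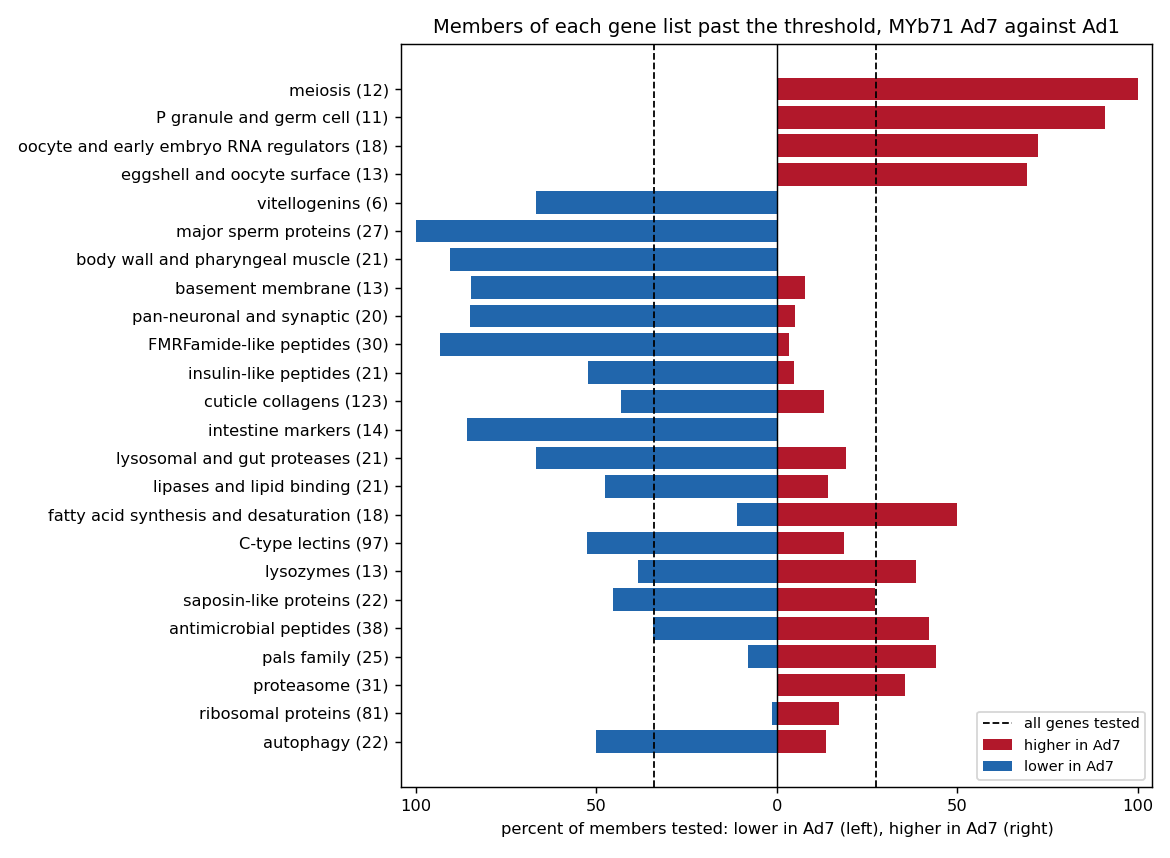
Percent of the tested members of each gene list that were called higher (red, to the right) or lower (blue, to the left) in Ad7 than in Ad1, with the number of members tested in parentheses and dashed lines at the percentages for all genes tested. The 4 germ line lists at the top have no member called lower, and the muscle, sperm, intestine and vitellogenin lists have no member called higher.

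Yolk protein transcripts fell in part. Of the 6 vitellogenin genes, 4 were lower in Ad7, none was higher, and the median change was −0.99. The gene vit-2, which encodes a major yolk protein, had 9002, 6706, 8080 and 7753 CPM in Ad7, against 21045, 37625, 22309 and 35533 CPM in Ad1 (log2 −1.92 ± 0.23, adjusted p = 7.53e-05). All Ad7 libraries lay below all Ad1 libraries, and Ad1 fell into a pair of lower libraries, replicates 1 and 3, and a pair of higher ones, replicates 2 and 4. The gene vit-6, whose product is cleaved into the small yolk proteins, followed the same order with 16577, 12159, 15036 and 14422 CPM in Ad7, against 20009, 40474, 23090 and 38518 CPM in Ad1 (log2 −1.1 ± 0.24, adjusted p = 0.00294). The close paralogues vit-3 (−1.62, adjusted p = 0.00102) and vit-5 (−0.70, adjusted p = 0.0148) were also called lower, whereas vit-4 (−0.88, adjusted p = 0.0514) and vit-1 (0.49, adjusted p = 0.284) did not pass. The call of vit-5 did not hold without Ad7 replicate 2 (−0.61), and reads of vit-3, vit-4 and vit-5 may be split among near-identical copies. Vitellogenin transcripts together made up 42433, 31275, 37879 and 36682 CPM in Ad7, against 58368, 106269, 63171 and 106609 CPM in Ad1. Their share of the counts was thus lower in every Ad7 library than in every Ad1 library. Over the 12 MYb71 adult libraries, the genes whose levels most resembled those of vit-2 were F40F8.5 (Pearson's r of log2 CPM 0.975), R03G8.6 (0.972), ctsa-2, a cathepsin A family gene (0.972), dre-1, an F-box gene of developmental timing (0.966) and C27D8.3 (0.964). These libraries include the age groups that differ, and the likeness is a description without a test.

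The female germ line moved the other way. All 12 meiosis genes, 10 of 11 P granule genes, 13 of 18 RNA regulators of oocytes and early embryos, and 9 of 13 genes of the eggshell and oocyte surface were higher in Ad7, with no member of these lists lower. Their median changes were 0.61, 0.62, 0.55 and 0.47. The gene perm-4, which is needed for the permeability barrier of the eggshell, had 2571, 2525, 2369 and 2116 CPM in Ad7, against 826, 1444, 978 and 1344 CPM in Ad1 (log2 1.03 ± 0.17, adjusted p = 0.000527). The Piwi gene prg-1, which guards the germ line against foreign transcripts, had 345, 405, 378 and 394 CPM in Ad7, against 139, 196, 150 and 199 CPM in Ad1 (log2 1.12 ± 0.13, adjusted p = 5.33e-05). The groups did not overlap for either gene, and the rises were modest beside those of the leading genes.

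The chromosome axis gene him-3 had 123, 131, 131 and 129 CPM in Ad7, against 66.4, 69.7, 64.3 and 80.2 CPM in Ad1, a log2 change of 0.84. The meiotic cohesin gene rec-8 (0.94), the P granule helicase gene glh-1 (0.96), and the embryonic translation regulators nos-2 (0.95), oma-2 (0.89) and spn-4 (0.87) rose by similar amounts. Of DNA replication and cell cycle genes, 10 of 18 rose and none fell, among them the mitotic kinase gene cdk-1 (0.58). The members that did not pass were 5 RNA regulators, 4 eggshell genes, 8 replication genes and 1 P granule gene, csr-1, an Argonaute gene (0.23, adjusted p = 0.153). The yolk receptor gene rme-2 was one of those 4. The levels of rme-2 were 1111, 1226, 1262 and 1252 CPM in Ad7, against 643, 976, 700 and 1275 CPM in Ad1 (log2 0.40, adjusted p = 0.0938), and Ad1 replicate 4 lay above all Ad7 libraries, but it passed in 4 of 16 alternatives. The summed level of the eggshell list was 17680, 19154, 19692 and 19126 CPM in Ad7, against 9324, 14356, 9863 and 17090 CPM in Ad1, and the order of the Ad1 libraries, high to low, was replicates 4, 2, 3 and 1. Without replicate 3 of both groups the counts of members higher were 7 of 12 for meiosis, 7 of 18 for the RNA regulators, 6 of 18 for replication and 4 of 13 for the eggshell, with no change of direction. Meiosis also stood at 7 of 12 with upper quartile scaling, and replication at 18 of 18 without Ad1 replicate 4.

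Sperm and embryonic transcripts fell. All 27 major sperm protein genes that could be tested, out of 31 in the table, were lower in Ad7, with a median change of −3.50, and 6 of 9 tested genes among 15 other sperm genes were lower (3 without Ad7 replicate 2 or without Ad7 replicate 3). For msp-33 the levels were 0.707, 0.639, 0.923 and 0.446 CPM in Ad7, against 24.8, 3.21, 3.02 and 7.05 CPM in Ad1 (log2 −3.84, adjusted p = 0.00339). Ad1 replicate 1 carried most of this signal, as it did for the whole family, whose sum was 32.4, 17.9, 15.7 and 18.9 CPM in Ad7, against 621, 56.2, 61.0 and 158 CPM in Ad1. Without Ad1 replicate 1 the count of calls was 27 and the median change −2.13, while 21 were called without Ad7 replicate 2 and 23 without Ad7 replicate 3. The major sperm protein genes are near-identical in sequence, so the 27 values are not independent. Of 10 tested genes that are transcribed first in the zygote, 6 were lower, such as the endoderm GATA gene end-1 (−3.71, with 2 counts in each Ad7 library, against 38, 18, 24 and 23 counts in Ad1). One was higher, the Notch target ref-1 (0.56).

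**Figure D3:**
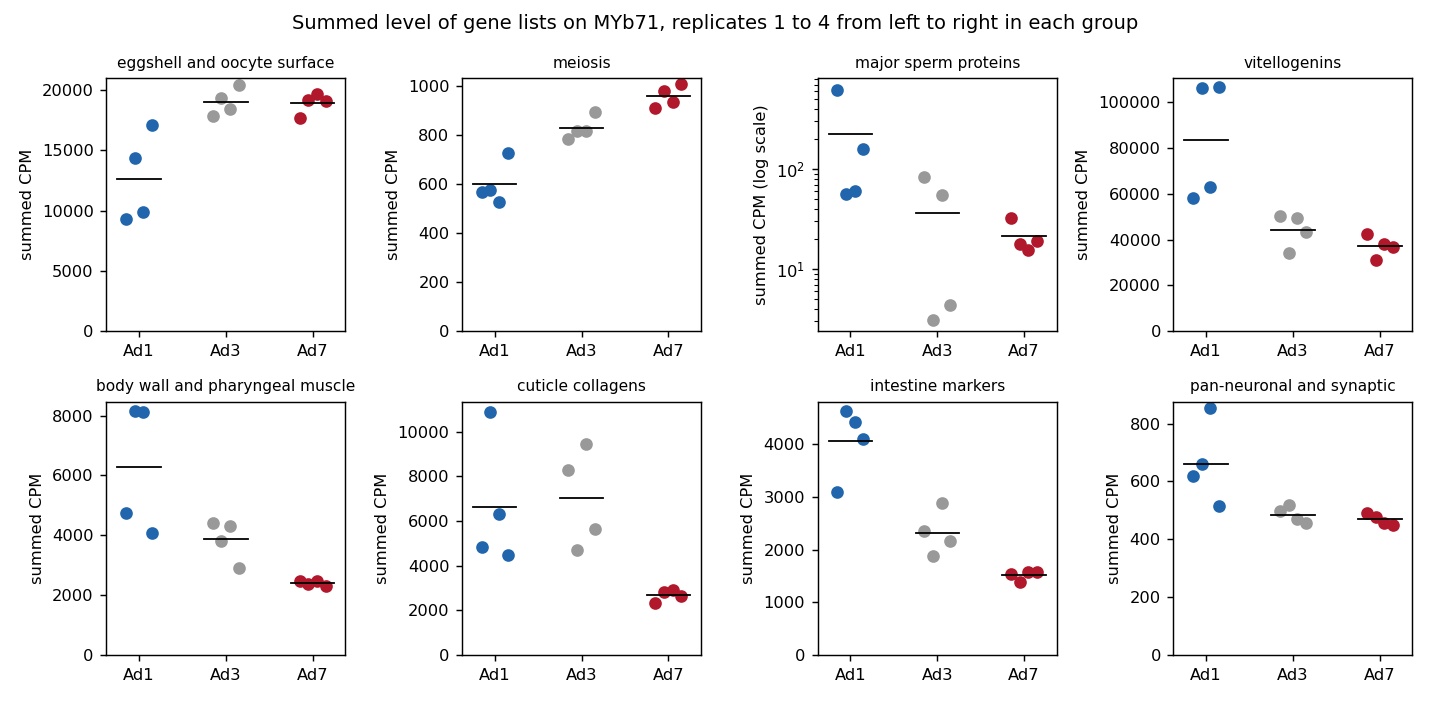
Summed CPM of 8 gene lists in each MYb71 library over adult life, with replicates 1 to 4 from left to right in each age group and a bar at the mean; the axis of the major sperm proteins is logarithmic and the others start at 0. The Ad7 libraries are tightly grouped and do not overlap the Ad1 libraries in any of the 8 lists, while the collagen sums of Ad3 lie within the range of Ad1.

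Somatic structure genes fell broadly. Of 21 genes of the contractile apparatus of body wall and pharynx, 19 were lower in Ad7, none was higher, and the median change was −1.56. The gene myo-2, a myosin heavy chain of the pharynx, had 19.7, 18.7, 22.3 and 18.6 CPM in Ad7, against 138, 132, 259 and 100 CPM in Ad1 (log2 −3.03 ± 0.28, adjusted p = 5.03e-05). The body wall troponin C gene pat-10 had 241, 236, 248 and 251 CPM in Ad7, against 534, 967, 828 and 531 CPM in Ad1, a log2 change of −1.58. Ad7 worms were alike for both genes, and the Ad1 worms all lay above them with a wide spread. The paramyosin gene unc-15 fell by 1.5 on the log2 scale.

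Among 13 basement membrane genes, 11 were lower, including the collagen IV gene emb-9 and the laminin genes epi-1 (−1.95) and lam-2 (−1.88). For emb-9 the levels were 132, 122, 128 and 115 CPM in Ad7, against 254, 445, 363 and 239 CPM in Ad1 (log2 −1.42). The single member that rose was cle-1, the collagen XVIII gene, with 69.1, 63.1, 57.6 and 63.2 CPM in Ad7, against 33.3, 54.2, 42.5 and 37.2 CPM in Ad1 (log2 0.57, adjusted p = 0.00259). The groups were separate for both genes, in opposite directions. Of 123 tested cuticle collagen genes out of 175, 53 were lower and 16 were higher, with a median change of −1.07. The sum over the collagens was 2341, 2805, 2923 and 2651 CPM in Ad7, against 4845, 10905, 6300 and 4467 CPM in Ad1. The member col-183 went against the majority, with 13.9, 12.9, 8.85 and 17.8 CPM in Ad7. In Ad1 it had only 1, 1, 5 and 1 raw counts, which are not on the CPM scale. Its log2 change was 6.66 to 7.89 over the alternatives.

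Neuronal transcripts fell as well. Of 20 tested pan-neuronal and synaptic genes, 17 were lower, and of 30 tested FMRFamide-like neuropeptide genes, 28 were lower, with medians of −1.45 and −1.08 and 1 gene higher in each list. The proprotein convertase gene egl-3, which processes neuropeptides, had 51, 46.3, 43.3 and 45.1 CPM in Ad7, against 96.4, 122, 157 and 83.3 CPM in Ad1 (log2 −1.34). The transporter genes of cholinergic neurons, unc-17 (−2.37), and of glutamatergic neurons, eat-4 (−2.52), and the neuropeptide genes flp-10 (−1.59) and flp-17 (−1.91) were lower too. Insulin-like peptide genes, which act through the receptor DAF-2, were lower in 11 of 21 tested members and higher in 1. The gene ins-4 had 1.25, 1.1, 1.34 and 1.56 CPM in Ad7, against 5.47, 6.06, 11.1 and 9.18 CPM in Ad1 (log2 −2.64), so the groups were well separated at a low level. The agonist gene ins-7 did not pass the test (0.36, adjusted p = 0.253). Targets that the transcription factor DAF-16 activates when insulin signalling is low were mixed, with 6 of 15 higher and 4 lower.

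The intestine list fell without exception among its calls, with 12 of 14 members lower and a median change of −1.09. The gut aspartyl protease gene asp-1 had 363, 413, 600 and 459 CPM in Ad7, against 1756, 2911, 2500 and 2474 CPM in Ad1 (log2 −2.43 ± 0.18, adjusted p = 4.57e-06). The proton pump gene vha-6, which acidifies the gut lumen, had 101, 88.9, 94.5 and 97.9 CPM in Ad7, against 215, 266, 289 and 255 CPM in Ad1 (log2 −1.46). The groups were far apart for both. The intermediate filament gene ifb-2 fell by 2.43 on the log2 scale and the esterase gene ges-1 by 0.53, while cpr-6, a cathepsin B gene, did not pass (−0.12, adjusted p = 0.471). The GATA factor gene elt-2 itself had 6.99, 5.85, 6.8 and 6.46 CPM in Ad7, against 9.44, 13.7, 11.8 and 6.16 CPM in Ad1 (log2 −0.69 ± 0.21, adjusted p = 0.0173). The ranges overlapped for elt-2, because Ad1 replicate 4 lay among the Ad7 libraries, and the call was lost without Ad1 replicate 2 (−0.53), without Ad1 replicate 3, without Ad7 replicate 2 and without replicate 3 of both groups. Its paralogue elt-7 fell by 1.23 on the log2 scale, with no overlap.

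Of 21 tested gut and lysosomal protease genes, 14 were lower and 4 were higher, and asp-17, named among the leading rises above, belonged to this family. The cathepsin B gene cpr-9 had 430, 374, 429 and 414 CPM in Ad7, against 1519, 1922, 2422 and 2184 CPM in Ad1 (log2 −2.32). Lipases and lipid binding proteins were lower in 10 of 21 tested members and higher in 3. The lysosomal lipase-like gene lipl-2 had 14.1, 7.67, 7.22 and 11.4 CPM in Ad7, against 121, 90.3, 124 and 106 CPM in Ad1 (log2 −3.50), and far-7 fell by 3.89 on the log2 scale although its relative far-3 was among the leading rises. Members of 1 family therefore moved in opposite directions by large amounts. The acyl-CoA synthetase gene acs-7, which acts in the making of ascaroside pheromones, had 8.07, 8.59, 7.22 and 6.53 CPM in Ad7, against 118, 98.7, 158 and 134 CPM in Ad1 (log2 −4.1 ± 0.17, adjusted p = 1.1e-07). The glyoxylate cycle gene icl-1 had 331, 224, 263 and 280 CPM in Ad7, against 1487, 1795, 1642 and 992 CPM in Ad1 (log2 −2.46). Fatty acid synthesis and desaturation genes, in contrast, were higher in 9 of 18 members and lower in 2, namely fat-3 (−1.21), a desaturase gene of polyunsaturated fats, and elo-2.

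Defence genes changed in both directions, as did all genes tested (27.6% higher and 34.0% lower). C-type lectin genes were lower in 51 of 97 tested members and higher in 18, out of 239 in the table, with a median of −0.84, and saposin-like genes were lower in 10 of 22 and higher in 6. The lectin gene clec-7 (−3.76) and the saposin-like gene spp-18 (−4.45) were among the clearest falls. Lysozyme genes were evenly split, with 5 of 13 higher (38.5%) and 5 lower (38.5%). The lysozyme gene lys-7, which protects worms against several bacteria, had 1130, 854, 809 and 922 CPM in Ad7, against 101, 172, 106 and 192 CPM in Ad1 (log2 2.67 ± 0.22, adjusted p = 8.78e-06). The invertebrate-type lysozyme gene ilys-3 had 26.4, 24.6, 26.1 and 32 CPM in Ad7, against 5.59, 2.44, 5.01 and 2.81 CPM in Ad1 (log2 2.71 ± 0.26, adjusted p = 2.28e-05). Both were several fold higher in each Ad7 library, whereas lys-4 fell by 1.62 on the log2 scale.

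Antimicrobial peptide genes were higher in 16 of 38 tested members (42.1%) and lower in 13 (34.2%, against 34.0% of all genes). The defensin-like gene abf-2 had 36.5, 49.2, 37.9 and 41.5 CPM in Ad7, against 1.90, 1.19, 0.787 and 0.685 CPM in Ad1 (log2 5.09 ± 0.27, adjusted p = 6.6e-07). Infection response genes were higher in 5 of 12 and lower in 3, and irg-8 had 83.6, 65.8, 72.2 and 74.0 CPM in Ad7, against 6.21, 8.56, 8.28 and 4.59 CPM in Ad1 (log2 3.38 ± 0.17, adjusted p = 2.82e-07). Neither gene had overlapping groups. The pals family, some of whose members respond to intracellular pathogens, was higher in 11 of 25 tested members and lower in 2, with pals-26 at 2.57. Without replicate 3 of both groups 7 pals genes were higher, and without Ad1 replicate 4 12 of 28 were higher and 7 lower.

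Stress and metal genes included some of the clearest rises. The metallothionein genes, whose products bind zinc and cadmium, both rose. The gene mtl-1 had 125, 120, 128 and 166 CPM in Ad7, against 4.22, 3.74, 9.07 and 2.88 CPM in Ad1 (log2 4.68 ± 0.33, adjusted p = 1.32e-05), and mtl-2 rose by 4.18 ± 0.32 (adjusted p = 5.52e-06). The transthyretin-related genes ttr-45 and ttr-51, which lie 1913 bases apart on chromosome IV on opposite strands, rose alike. For ttr-45 the levels were 522, 496, 457 and 442 CPM in Ad7, against 99.7, 105, 106 and 86.0 CPM in Ad1 (log2 2.24 ± 0.10), and ttr-51 changed by 2.0. The neighbouring genes E04F6.8 (2.08) and E04F6.9 (1.59), 244 bases apart on chromosome II, were both higher as well.

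Protein synthesis and turnover genes changed little. Ribosomal protein genes were higher in 14 of 81 tested members and lower in 1, with a median of 0.13 that became −0.02 with upper quartile scaling, and rps-0 rose by 0.49. Translation factors were higher in 5 of 16, such as eef-1G (0.58). Proteasome subunit genes were higher in 11 of 31, for instance pbs-1 (0.54), a count that was 30 without Ad1 replicate 4, 4 without Ad1 replicate 1, without Ad7 replicate 2 or without Ad7 replicate 4, and 2 without replicate 3 of both groups. Mitochondrial chaperones and related genes were higher in 7 of 12. The mitochondrial Hsp70 gene hsp-6 had 896, 966, 888 and 890 CPM in Ad7, against 472, 576, 510 and 642 CPM in Ad1 (log2 0.69), and hsp-60 rose by 0.56. The small heat shock protein gene hsp-12.2 fell by 2.42 on the log2 scale.

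Autophagy genes were lower in 11 of 22 and higher in 3, and the gene of their regulator HLH-30, hlh-30, was lower with a change of −1.27. Genes of stress and longevity factors were higher in 6 of 17 and lower in 7, and the members with the smallest p all fell, namely hlh-30, pha-4 (−2.59), a FOXA factor gene, and pqm-1. The homeobox gene dve-1, which acts in the mitochondrial stress response, was lower too (−1.76). The zinc finger gene pqm-1, which is set against DAF-16 in the control of growth and stress genes, had 21.3, 22.3, 18.5 and 18.8 CPM in Ad7, against 56.6, 58.9, 67.6 and 59.0 CPM in Ad1 (log2 −1.62). Both groups were narrow for pqm-1 and far from each other.

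The counts of changed genes differed by chromosome. On the X chromosome 251 of 2016 tested genes (12.5%) were higher and 1027 (50.9%) lower in Ad7, with a median change of −0.56, against 30.3% higher and 31.1% lower of 11765 autosomal genes. In C. elegans the X chromosome is known to be largely silent in the germ line and to hold few germ line genes.

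The Ad3 libraries on MYb71 showed when in adult life these changes occurred. Between Ad1 and Ad3, 3490 of 14333 genes (24.3%) were higher and 3809 (26.6%) lower in Ad3. Between Ad3 and Ad7, 495 (3.45%) were higher and 826 (5.76%) lower in Ad7, which is 9.22% in either direction against 50.9% in the first step. Both steps share the Ad3 libraries, so they are given side by side without a test of one against the other. The oocyte RNA regulators were higher in 15 of 18 in the first step and in none in the second. Neuronal genes were lower in 16 of 20 in the first step and in 1 in the second. Muscle genes were lower in 15 of 21 in the first step and in 12 in the second. Cuticle collagens had 26 of 131 higher and 14 lower in the first step (median 0.55), both smaller shares than among all genes. They fell in the second, with 2 higher and 27 lower (median −1.40). Of 25 pals genes, 1 was higher and 4 were lower in the first step, and 7 were higher and 2 lower in the second. Major sperm protein genes were lower in 8 of 27 in the first step and in none in the second. Their Ad3 sums were uneven, at 84.3, 3.11, 54.9 and 4.34 CPM. Ad3 replicates 2 and 4 lay below every Ad7 library.

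Single genes followed different courses. T22B7.7 rose by 6.1 in the first step, with 0.20 in the second (adjusted p = 0.81), and fat-5 by 4.87 and then 0.71 (adjusted p = 0.13). The gene pqm-1 fell by 1.73 in the first step on the log2 scale and did not pass in the second (0.14), and ins-4 changed by −2.81 and then 0.19. Others moved in both steps, such as asp-17 (2.67 and then 3.49), abf-2 (2.2 and then 2.92), fmo-2 (−2.48 and then −3.72) and T22F3.11 (−2.98 and then −4.46). The lysozyme gene ilys-3 changed direction. It had 5.59, 2.44, 5.01 and 2.81 CPM in Ad1, 2.0, 3.26, 2.84 and 1.31 CPM in Ad3, and 26.4, 24.6, 26.1 and 32 CPM in Ad7. The first step was −0.75 (adjusted p = 0.049), with overlapping groups, and the second was 3.49 (adjusted p = 2.3e-05).

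**Figure D4:**
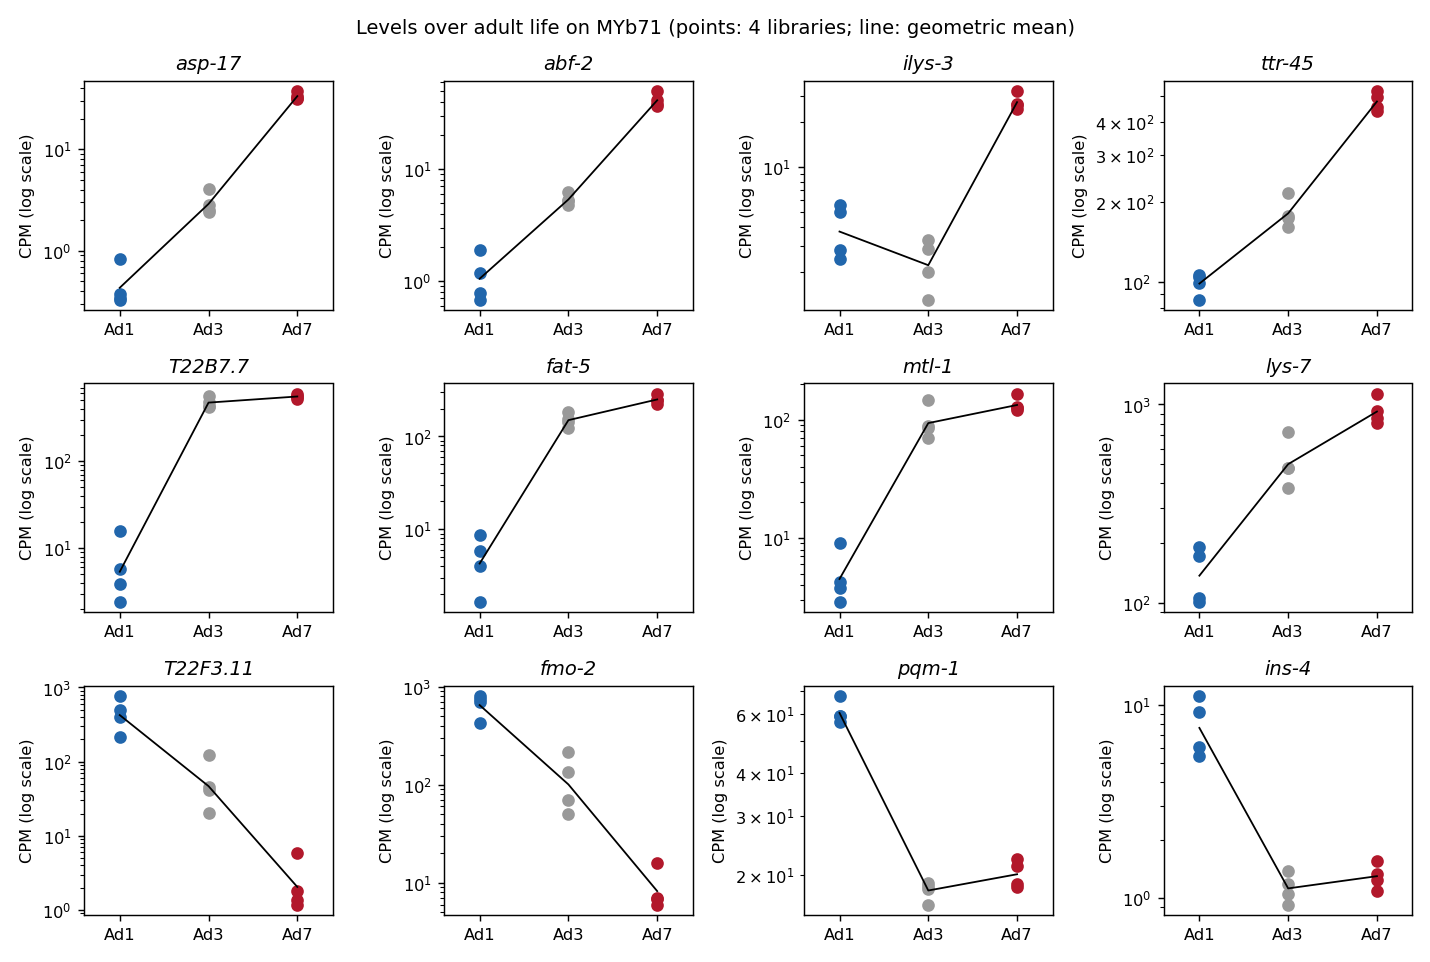
CPM on a log axis for 12 genes in MYb71 worms at Ad1, Ad3 and Ad7, with 4 libraries per age and a line through the geometric means. T22B7.7, fat-5, mtl-1, pqm-1 and ins-4 are near their Ad7 level at Ad3, whereas ilys-3 stays low at Ad3 and reaches 24.6 to 32 CPM at Ad7.

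Whether the change over adult life on MYb71 differed from that on OP50 was tested as an interaction. The OP50 Ad1 replicate 3 stood apart: its correlation over 13893 genes was 0.926 and 0.930 with the other OP50 Ad1 libraries, which had 0.988 with each other, and 0.951 to 0.975 with the MYb71 Ad1 libraries. Those other OP50 libraries had 0.949 to 0.973 with the MYb71 Ad1 libraries, and the closest library to OP50 Ad1 replicate 3 was Ad1 replicate 4 of the isolate labelled MYb65 (0.982). On that isolate, Ad1 replicate 2 had 0.985 and 0.986 with OP50 Ad1 replicates 1 and 2. With the other Ad1 libraries of its own isolate it had 0.952 to 0.971. The Ad1 libraries thus did not group by diet throughout. Whether the label of OP50 Ad1 replicate 3 is right was not tested, and the counts with and without it are therefore both given. With all libraries, 8 of 15318 genes (0.0522%) passed, of which 3 (0.0196%) changed more positively on MYb71 and 5 (0.0326%) more negatively, and 769 had an unadjusted p under 0.05. Without that library, 1173 of 15657 genes (7.49%) passed, 450 more positively and 723 more negatively on MYb71, and these included the 8. The MYb71 libraries are shared between this test and the ones above.

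The 8 genes are given with the OP50 values beside them. The metallothionein gene mtl-2 had 22.1, 21.8, 18.8 and 25.8 CPM in Ad7 and 1.53, 0.416, 1.66 and 0.959 CPM in Ad1 on MYb71, against 56.9, 42.7 and 39.1 CPM in Ad7 and 64.2, 37 and 23.8 CPM in Ad1 on OP50. The difference of the changes was 4.06 ± 0.51 on the log2 scale (SE, adjusted p = 0.00825), and the level of mtl-2 on OP50 was high at both ages. The neighbouring genes elo-5 and elo-6, which encode elongases of monomethyl branched-chain fatty acids, ran in opposite directions on the 2 diets. For elo-5 the levels were 110, 96.4, 87.2 and 93.3 CPM in Ad7 and 48.4, 67.4, 60 and 41.2 CPM in Ad1 on MYb71, against 76.2, 75.4 and 84.7 CPM in Ad7 and 122, 158 and 123 CPM in Ad1 on OP50 (difference 1.60 ± 0.21, adjusted p = 0.00825). For elo-6 the levels were 277, 221, 207 and 221 CPM in Ad7 and 115, 135, 164 and 145 CPM in Ad1 on MYb71, against 217, 243 and 225 CPM in Ad7 and 297, 402 and 307 CPM in Ad1 on OP50 (difference 1.27 ± 0.20, adjusted p = 0.0464). Neither elongase gene had overlapping ages on either diet.

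F44E7.5 had 51.2, 56.4, 54.5 and 56.2 CPM in Ad7 and 171, 245, 185 and 284 CPM in Ad1 on MYb71, against 50.2, 53.4 and 46.9 CPM in Ad7 and 30.4, 32.9 and 31.5 CPM in Ad1 on OP50 (difference −2.69 ± 0.21, adjusted p = 9.13e-05). R08F11.4 had 0.832, 1.00, 0.881 and 0.594 CPM in Ad7 and 10.1, 9.09, 11.1 and 9.93 CPM in Ad1 on MYb71, against 0.798, 0.651 and 1.09 CPM in Ad7 and 0.765, 0.799 and 1.01 CPM in Ad1 on OP50 (difference −3.56 ± 0.36, adjusted p = 0.000834). Both genes had overlapping levels on the 2 diets at Ad7 and stood higher on MYb71 in every Ad1 library. The genes acs-7 (−2.14, adjusted p = 0.0116), M02H5.8 (−2.51, adjusted p = 0.0205) and F40F8.5 (−2.49, adjusted p = 0.0332) made up the rest.

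For some of the leading falls the outcome depended on the OP50 library that stood apart. T22F3.11 had 2.39, 0.407 and 1.28 CPM in Ad7 and 1.12, 0.533 and 615 CPM in Ad1 on OP50, so that only replicate 3 resembled MYb71 worms. Its difference of changes was −0.23 with all libraries (adjusted p = 0.996) and −8.05 without that library (adjusted p = 0.00296). For fmo-2 the OP50 levels were 2.81, 1.26 and 1.54 CPM in Ad7 and 3.1, 1.86 and 546 CPM in Ad1, and the difference was 0.41 with it (adjusted p = 0.991) and −5.77 without it (adjusted p = 0.000437). On the isolate labelled MYb65, fmo-2 had 58.1, 1.68, 2.78 and 124 CPM in Ad1. Its Ad1 level thus varied widely within that group as well. The differences for T16G1.4, C23G10.11, fil-1 and fmo-1 also passed only without OP50 Ad1 replicate 3 (adjusted p = 0.000518, 0.00101, 0.000222 and 0.00541). Those for pud-2.2, col-135, col-165 and pud-4 passed neither with nor without it. Among the leading rises, the differences for H39E23.3 and T22B7.7 did not pass with or without the library (adjusted p = 0.262 and 0.404 without it). Those for D1086.9, far-3, dhs-26, ugt-66 and abf-2 did not either. The differences for fat-5 (3.83, adjusted p = 0.00535), asp-17 (1.59, adjusted p = 0.0191) and F15B9.6 (−1.50, adjusted p = 0.0497) passed only without it. The differences of changes for elt-2 (0.14, adjusted p = 0.985) and vit-2 (−0.32, adjusted p = 0.977) did not pass with all libraries.

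**Figure D5:**
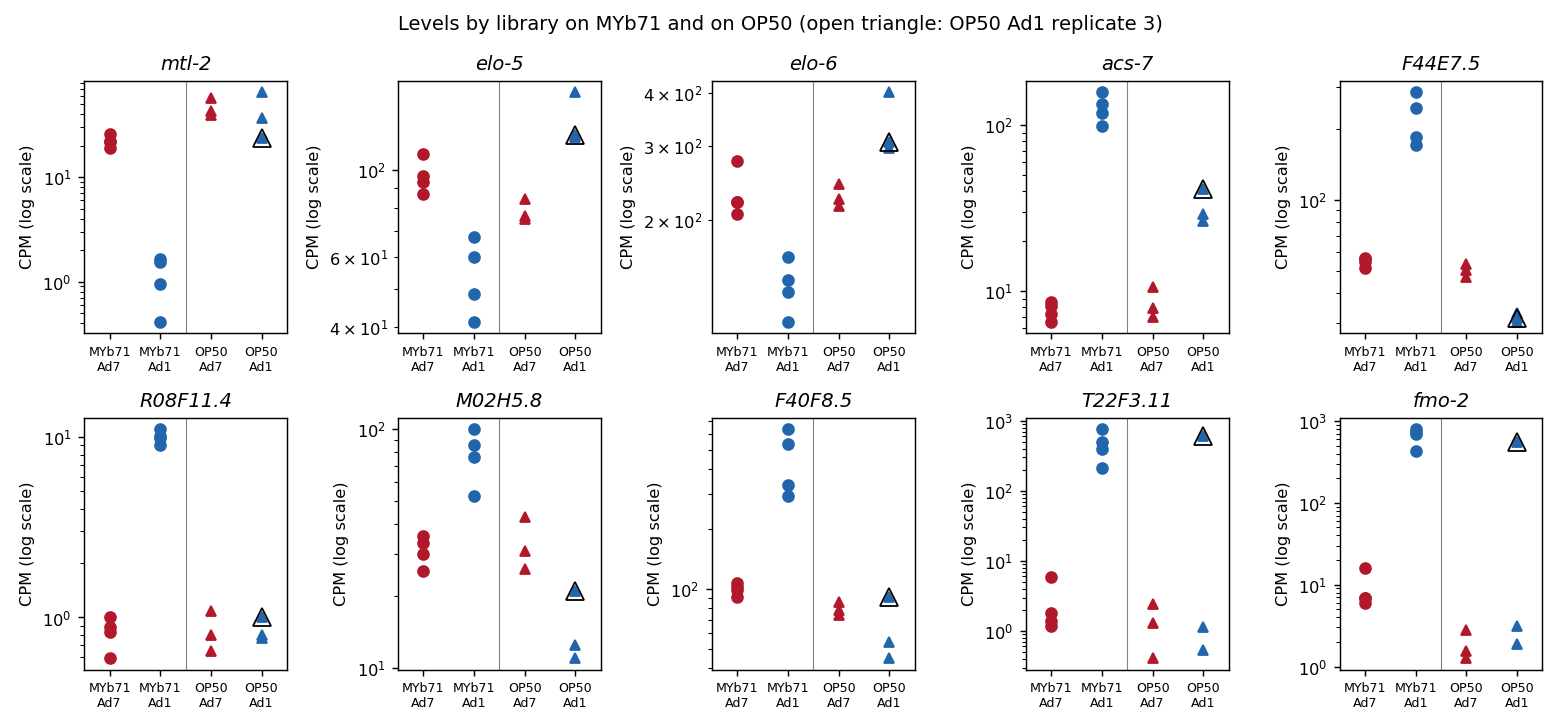
CPM on a log axis in Ad7 (red) and Ad1 (blue) worms on MYb71 (circles) and OP50 (triangles) for the 8 genes whose change differed between the diets with all libraries, and for T22F3.11 and fmo-2; an open triangle marks OP50 Ad1 replicate 3. For T22F3.11 and fmo-2 that library sits at 615 and 546 CPM, far above the other OP50 Ad1 libraries, while for the 8 genes it lies much closer to them. The 8 genes passed with that library included, a choice that favours genes with a small spread among OP50 Ad1 libraries.

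Against the isolate labelled MYb65, no gene passed in edgeR, 395 had an unadjusted p under 0.05, DESeq2 called 15 and the fit without a filter on low counts called 1. The Ad1 worms on that isolate varied widely between replicates. T22F3.11, for example, had 0.329, 0.365, 2.36 and 0.992 CPM in Ad7 and 401, 18.5, 17.2 and 775 CPM in Ad1 there. All Ad7 libraries on that isolate lay below all its Ad1 libraries, which were unequal among themselves.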

How the data were processed

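RNA of whole worms was sequenced from Illumina TruSeq libraries. Per the study's methods, the authors trimmed reads with Trimmomatic, aligned them with STAR (version 2.5.3a per the labels) to WormBase release WS235 and deposited raw counts per gene from HTSeq. How reads with several matches were counted was not given in the sources used here; therefore near-identical genes are uncertain, and the kit does not mark strand, so overlapping antisense genes cannot be told apart. The study states 3 replicates per group; all 4 deposited for MYb71 were used here, and the fit without replicate 3 is an alternative. The comparison used edgeR 4.0.16 (R 4.3.3) quasi-likelihood tests with TMM scaling, genes kept by filterByExpr (minimum count 10, total 15, share 0.7), Benjamini-Hochberg adjustment over all genes tested and a threshold of 0.05. Ad3 steps were fitted on 12 libraries, and diets as interactions. Alternatives were DESeq2 1.42.0, other scalings, no filter, a replicate block and each replicate left out. Scripts were tested on simulated data. Gene names and coordinates came from Ensembl release 115 (WBcel235). Genes were named by rule: the 10 largest changes and 10 smallest p in each direction among separated genes with a mean log2 CPM of at least 2, 3 genes per list by p, all of short lists, 5 per direction of each interaction, and 5 genes like vit-2; elo-2 was named in addition. A prior count of 2 entered log2 CPM only. The log2 fold changes of the fits, the correlations of OP50 Ad1 libraries and Dixon's ratios did not use it. The members and lists were chosen with earlier results of these data known.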

Additional observations from a re-analysis of the deposited data

Results flagged for a closer look

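In 14 of 334 sets of 4 replicates examined, 1 library lay far from the other 3, with the gap to its nearest neighbour over the range above Dixon's 95% critical value. Chance flags about 1 in 20. In Ad7 these were dve-1 (0.936), hsp-6 (0.890), far-3 (0.886), R03G8.6 (0.881), dre-1 (0.860), the summed intestine list (0.855), fmo-2 (0.854), pha-4 (0.849), unc-17 (0.849) and end-1 (0.842). In Ad1 these were gst-20 (0.938), the summed autophagy list (0.880), asp-17 (0.873) and the summed ribosomal protein list (0.836). In the Ad7 libraries replicate 1 was the high one for far-3 (831 CPM) and fmo-2 (16.1 CPM).

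The change between Ad7 and Ad1 differed between MYb71 and OP50 in 8 genes by the interaction test. The difference was 4.06 for mtl-2, 1.60 for elo-5 and 1.27 for elo-6, and it was −2.14 for acs-7, −2.49 for F40F8.5, −2.51 for M02H5.8, −2.69 for F44E7.5 and −3.56 for R08F11.4, all on the log2 scale.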

How the results depend on the processing

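Of 119 named genes, 113 were called for Ad7 against Ad1, 110 of these under all alternatives, and none changed sign. The exceptions were elt-2 and vit-5 (above) and the sperm gene ssq-2 under the replicate block. The 8551 calls became 3714 with a log2 change of at least 1, and 7566 to 10205 when 1 replicate was left out. Same-numbered Ad7 and Ad1 replicates correlated at 0.195, 0.101, 0.0344 and 0.237 in their deviations (replicates 1 to 4), and each Ad7 library correlated best with its own number except replicate 3. The share of ribosomal RNA genes had the same order of numbers at both ages. The paper states that the treatments were assayed in parallel, over independent runs. Neither the paper nor the labels say what a replicate number shares, so the numbers were not treated as pairs. With the replicate block 8666 genes were called, 4001 higher and 4665 lower, 8190 for Ad3 against Ad1, 1849 for Ad7 against Ad3 and 6 for the difference from OP50. Leaving out 1 library gave 5787 to 8842 calls for Ad3 against Ad1 and 642 to 2021 for Ad7 against Ad3, lowest without Ad7 replicate 2 and highest without Ad1 replicate 4. For the difference from OP50, DESeq2 called 79 genes, and leaving out 1 library gave 2 (OP50 Ad7 replicate 2) to 1173 (OP50 Ad1 replicate 3). For MYb65, DESeq2 called 15, no filter 1, and leaving out 1 library 0 to 2. The cause was not tested. The counts of list members under each alternative were chosen after seeing the data; members higher ranged over 7 to 31 for ribosomal proteins, 2 to 12 for translation factors and 3 to 7 for mitochondrial chaperones. Depth limits genes near 1 count, such as col-183 in Ad1.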

Other observations

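Detoxification enzyme families held members that changed strongly in both directions. Cytochrome P450 genes were lower in 23 of 60 tested members and higher in 15, which is close to the 34.0% lower and 27.6% higher among all genes tested. Glucuronosyltransferase genes were lower in 24 of 60 and higher in 10, and glutathione S-transferase genes were lower in 19 of 39 and higher in 4. The glucuronosyltransferase gene ugt-63 had 24.3, 22.3, 18.3 and 26.1 CPM in Ad7, against 0.497, 0.357, 0.497 and 0.0685 CPM in Ad1 (log2 5.84 ± 0.31, adjusted p = 5.59e-07), while ugt-54 of the same family fell by 3.36 on the log2 scale. The P450 gene cyp-37B1 had 1.71, 1.42, 1.89 and 2.45 CPM in Ad7, against 44.8, 37, 41 and 20.9 CPM in Ad1 (log2 −4.33 ± 0.27, adjusted p = 1.39e-06), and cyp-29A4 rose by 4.40. The groups were separate for these genes. The transferase genes gst-28 (−3.71) and gst-20 (−3.17) were lower. Among antioxidant genes 6 of 17 rose, such as the superoxide dismutase gene sod-1 (0.98), and 4 fell, such as the catalase gene ctl-2 (−1.02).

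Nuclear genes of the respiratory chain were higher in 4 of 39 and lower in 5, and mitochondrial genes were higher in 2 of 12 and lower in none. Both respiratory lists were called less often than all genes in either direction. Genes of glycolysis and the TCA cycle were higher in 7 of 31 and lower in 11, near the share of all genes. The nuclear respiratory count of 5 lower was 10 without Ad1 replicate 1 and 16 with upper quartile scaling, and the glycolysis count of 11 lower was 5 without Ad7 replicate 2 or 3, 7 without Ad7 replicate 1, 6 without Ad7 replicate 4 and 16 with upper quartile scaling. The members higher were 2 for the respiratory list without Ad1 replicate 1, Ad7 replicate 2 or Ad7 replicate 4, and 4 for the glycolysis list without Ad1 replicate 1 or 3 or Ad7 replicate 2, 3 or 4. Genes of propionate breakdown and the vitamin B12 response were higher in 4 of 17 and lower in 8, and 2 were higher without Ad1 replicate 1, Ad1 replicate 3, or Ad7 replicate 1, 2 or 4. Beta-oxidation genes were higher in 4 of 20 and lower in 8, cytosolic heat shock genes higher in 3 of 20 and lower in 6, and endoplasmic reticulum stress genes higher in 6 of 17 and lower in 4. Of the remaining lists, transthyretin-related genes were higher in 11 of 46 and lower in 18, metal handling genes higher in 5 of 12 and lower in 3, GATA factor genes higher in 1 of 8 and lower in 5, genes that DAF-16 represses higher in 1 of 9 and lower in 2, and histone genes, whose copies are near-identical, higher in 5 of 22 and lower in 3.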
